A study of Mus musculus with 20 samples.

Results

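The early response of mouse macrophages to CpG DNA was read at transcribed enhancers, by setting macrophages stimulated with CpG for 3 h against unstimulated macrophages. The comparison used 4 of the 20 libraries of the series, 2 of CpG 3 h and 2 of unstimulated cells, chosen by their labels, and all 11222 enhancers of the deposited table. Of these, 2792 enhancers held enough tags to be tested, and these are the enhancers meant by "tested" from here on. All groups were bone marrow-derived macrophages of the C57BL/6 strain, kept in culture for 7 days with M-CSF (macrophage colony-stimulating factor) supplied as medium conditioned by L929 cells that express the human factor. The CpG 3 h group received CpG for 3 h, and the unstimulated group is the 0 h point, with neither CpG nor interferon gamma (IFN). The groups used beside them were CpG at 9 h and at 15 h, IFN for 3 h, and IFN with CpG (IFN+CpG) for 3 h, each with 2 libraries described by the series as biological replicates. An untreated group of 3 h was not among the samples, so that an effect of CpG and an effect of 3 more hours in culture cannot be told apart in the comparison with unstimulated cells.

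Toll-like receptor 9 (TLR9) lies in endosomes and binds DNA with unmethylated CG dinucleotides, which are common in bacterial DNA and rarer and mostly methylated in mammalian DNA. Its adaptor MyD88 leads to the activation of NF-kB, AP-1 and interferon regulatory factors, which bind enhancers that macrophage factors such as PU.1 keep accessible. Active enhancers are themselves transcribed in both directions into short, unstable, capped RNAs, and cap analysis of gene expression (CAGE) counts the 5' ends of such RNAs as tags.

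The stimulus named in the protocol text was CpG ODN-1826, a synthetic single-stranded oligonucleotide of 20 bases used as a TLR9 agonist in mouse cells. It is shown because its CG dinucleotides, in capitals, are what the receptor recognises.
CpG ODN-1826: tccatgaCGttcctgaCGtt
Both CG dinucleotides, whose cytosines are bases 8 and 17 counted from the 5' end, lie within a copy of the same 6 bases, GACGTT. The protocol text gives 0.25 µg/mL for 24 h, which is not one of the times of these samples, so that the dose used for the CAGE samples is not certain. For IFN the text gives 100 ng/mL, with the same uncertainty. A 24 h polarization with IL-10 and IL-4 (50 ng/mL each) is described as well, and whether these cells passed through it is not stated.

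Tags were counted with nAnT-iCAGE, a form of CAGE without amplification. The 4 libraries held 13387901 and 13096076 tags in all for CpG 3 h, against 13826739 and 13435564 for unstimulated cells. Of these, 16783 and 17811 tags lay in enhancers in the CpG 3 h libraries, against 22026 and 20301 in the unstimulated libraries. Between the replicates of a group, log values correlated at r = 0.739 for CpG 3 h and at 0.802 for unstimulated cells. These r values cover all 2792 tested enhancers, which are not independent replicates, and include those without a tag in the group. The replicates differed by slightly more than sampling noise, with a chi-square per degree of freedom of 1.13 for CpG 3 h and 1.19 for unstimulated cells. The chi-square covers the 2492 and 2420 enhancers with a tag in the group. Enhancers are named by mm39 coordinates as the deposited table gives them. Genes near them and marker genes of the cell type were not analysed here, because the annotation at hand is of another build.

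All enhancer tags together made up 1307 ± 75.2 RPM (tags divided by all tags of the library on the usual RPM scale; mean ± SD, n = 2) at CpG 3 h and 1552 ± 58.0 RPM in unstimulated cells (n = 2). Both CpG 3 h libraries lay below both unstimulated libraries, with a difference of -245.2 RPM, and the exact permutation test of 2 against 2 libraries cannot give a p below 0.33. Within the CpG time course the total was 1598 ± 22.8 RPM at 9 h and 1513 ± 58.8 RPM at 15 h (n = 2 each). With IFN for 3 h it was 1153 ± 229 RPM, and with IFN+CpG for 3 h 1905 ± 419 RPM (n = 2 each). A total below that of unstimulated cells was thus not particular to CpG. The replicates within the IFN 3 h and the IFN+CpG 3 h groups lay further apart than the CpG 3 h and unstimulated means. In bulk samples such as these, less RNA per cell and fewer cells with the RNA cannot be told apart.

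Few enhancers differed between CpG 3 h and unstimulated cells past the threshold. Of 2792 tested enhancers, 43 were called at an edgeR adjusted p under 0.05 (quasi-likelihood test, Benjamini-Hochberg), which is 1.54% of those tested. Of the 43, 33 were higher (1.18% of the tested) and 10 lower (0.358%), so that 76.7% of the calls were rises. The unadjusted p was under 0.05 at 394 enhancers. The split depended on the scaling: with whole-library totals in place of TMM factors from the enhancer tags, 15 enhancers were higher and 15 lower, 50% each way, and the median log2 change over the 2792 enhancers was -0.08 in place of 0. With limma on RPM, which is scaled to whole libraries too, rises were 32 of 64 calls at a pseudocount of 0.1, 37 of 111 at 0.5 and 36 of 138 at 2. On simulated data the edgeR test also found fewer falls than rises of the same fold, so that the surplus of rises is a count of calls and not a measure of how many enhancers rose or fell. Without 1 library the count fell to 22 (without CpG 3 h replicate 1), 17 (without CpG 3 h replicate 2), 11 (without unstimulated replicate 1) and 13 (without unstimulated replicate 2), and DESeq2 called 20. In the plot of log2 change against tags, the calls lie at the outer edge of a spread that is widest for enhancers with few tags.

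**Figure D1:**
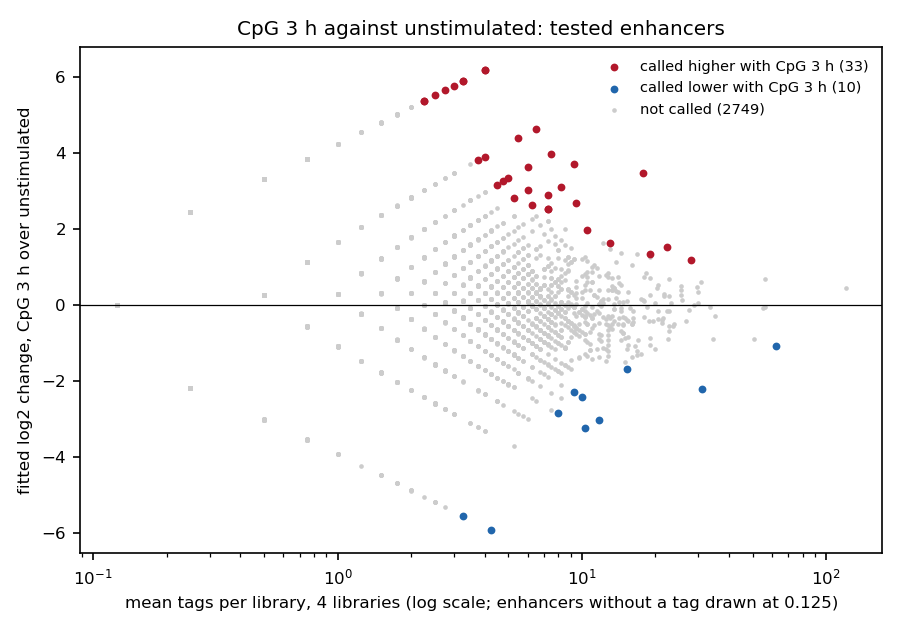
Fitted log2 change at CpG 3 h over unstimulated (vertical axis) against the mean tags per library of the 4 libraries (horizontal axis, log scale) for the 2792 tested enhancers, 1 point each; red points are the 33 called higher, blue points the 10 called lower and grey points the rest. At enhancers with few tags only large fitted changes pass the test, and at those with many tags smaller ones do.

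A first group of rises had no tag in unstimulated cells, so that their folds are known only as lower bounds. There were 9 of these among the 33 rises, out of 372 tested enhancers without an unstimulated tag, and for such enhancers only a rise could be called. Rises and falls are numbered by the size of the fitted log2 change, which for this group depends on the prior count and does not rank it above the rises with measured folds. Rise 1, chr19:10822778-10823211, had 7 and 9 tags in the CpG 3 h libraries and none in either unstimulated library. The CpG 3 h libraries stood at 0.523 and 0.687 RPM, and the rise was at least 6.71-fold when the unstimulated pair of libraries is set to a floor of 3 tags in sum (log2 change 6.18 ± 1.29, SE; edgeR adjusted p = 6.76e-04). Rise 2, chr5:136063685-136064190, had the same tags, 7 and 9 against none (at least 6.71-fold; edgeR adjusted p = 0.00136). These 2 enhancers had clear tags in both stimulated libraries. Rise 3, chr10:18888253-18888845, had 8 and 5 tags at CpG 3 h and none in unstimulated cells (at least 5.45-fold; edgeR adjusted p = 0.0083).

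The other rises without an unstimulated tag were carried unevenly by the CpG libraries in some cases. Rise 4, chr7:126752700-126752963, had 3 and 10 tags at CpG 3 h and rise 5, chr2:117129364-117129727, had 4 and 8, each against none. Rise 6, chr2:77937049-77937442, had 7 and 4 tags against none, and rise 7, chr6:49478371-49478772, had 4 and 6 against none. Rise 8, chr6:122911906-122912183, had 8 tags in one CpG 3 h library and 1 in the other, the most uneven of these 9. Rise 9, chr2:90902213-90902681, had 5 and 4 tags at CpG 3 h and none in unstimulated cells. Their bounds lay between at least 3.77-fold for rises 8 and 9 and at least 5.45-fold for rise 4. Of these 9 calls, 0 were kept without unstimulated replicate 1 (edgeR adjusted p = 0.0602 to 0.297) and 1, at rise 1, without unstimulated replicate 2 (0.0643 to 0.277 for the other 8). Without CpG 3 h replicate 1, 4 were kept (lost calls at adjusted p = 0.0903 to 0.663), and without CpG 3 h replicate 2, 5 were kept (0.138 to 0.302, edgeR).

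A second group of rises had 1 to 3 tags in unstimulated cells. Rise 10, chr10:17648333-17648543, had 13 and 12 tags in the CpG 3 h libraries and 0 and 1 in the unstimulated ones. That is a ratio of 31.4-fold with an exact 95% counting interval of 5.15 to 1291, and a log2 change of 4.63 ± 1.00 (edgeR adjusted p = 0.00115). Rise 11, chrX:11945002-11945514, had 16 and 5 tags at CpG 3 h against 1 and 0 in unstimulated cells (26.4-fold, 4.25 to 1092). Rise 12, chr13:113750503-113750811, had 16 and 12 tags against 0 and 2 (17.6-fold, 4.44 to 152.5; edgeR adjusted p = 1.29e-04). In these 3 the lower CpG 3 h library still held more tags than both unstimulated libraries together. Rise 13, chr12:8851782-8852231, had 8 and 7 tags at CpG 3 h against 0 and 1, and rise 14, chr19:21031014-21031313, had 4 and 10 against 1 and 0. Rise 15, chr13:120561689-120561992, had 18 and 16 tags against 1 and 2, with 1.28 ± 0.0868 RPM at CpG 3 h and 0.111 ± 0.0541 RPM in unstimulated cells (log2 change 3.71 ± 0.71; edgeR adjusted p = 1.29e-04). Rise 15 stayed called without each of the 4 libraries in turn. For rises 10 to 15 together, 4 calls were kept without CpG 3 h replicate 1, 4 without CpG 3 h replicate 2, 2 without unstimulated replicate 1 and 3 without unstimulated replicate 2, with edgeR adjusted p = 0.0615 to 0.396 for the calls lost.

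The clearest rise by its test was rise 17, chr17:56268411-56268705. It had 31 and 33 tags at CpG 3 h and 4 and 3 tags in unstimulated cells, or 2.42 ± 0.144 RPM at CpG 3 h and 0.256 ± 0.0467 RPM in unstimulated cells. The replicates agreed within a few tags in both groups, and the log2 change was 3.47 ± 0.50 (edgeR adjusted p = 9.62e-09). It stayed called without each of the 4 libraries, with an edgeR adjusted p of at most 2.46e-04. Rise 16, chr17:50464319-50464807, on the same chromosome, had 11 and 11 tags at CpG 3 h against 2 and 0 in unstimulated cells (13.8-fold, 3.40 to 121.4). Rise 21, chr11:96713520-96713807, had 12 and 17 tags at CpG 3 h against 1 and 3 in unstimulated cells, a log2 change of 3.10 ± 0.65 (edgeR adjusted p = 6.76e-04). Rise 25, chr5:91048099-91048421, had 12 and 20 tags at CpG 3 h against 3 and 3 in unstimulated cells, a log2 change of 2.69 ± 0.61. The calls of rises 16, 21 and 25 were each lost without at least 1 library: rise 16 without unstimulated replicate 2 (edgeR adjusted p = 0.148), rise 21 without unstimulated replicate 1 (0.0884) or CpG 3 h replicate 2 (0.0544), and rise 25 in 3 of the 4 fits.

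Rises 30 to 33 were at enhancers with 15 to 40 tags over the unstimulated libraries, where smaller changes could pass the test than at enhancers with few tags. Rise 33, chr2:30818921-30819384, had 40 and 32 tags at CpG 3 h against 28 and 12 in unstimulated cells, a log2 change of 1.18 ± 0.34 (edgeR adjusted p = 0.038). Rise 31, chr7:75319181-75319526, had 28 and 34 tags at CpG 3 h against 18 and 9 in unstimulated cells (2.34 ± 0.357 RPM against 0.986 ± 0.447 RPM), a log2 change of 1.52 ± 0.37. Rise 30, chr11:117878837-117879183, had 19 and 18 tags at CpG 3 h against 9 and 6 in unstimulated cells, and rise 32, chr11:75351143-75351651, had 26 and 25 against 9 and 16. In these 4 enhancers the unstimulated libraries differed from each other by more tags than the CpG 3 h libraries did. In each the groups did not overlap, as in 42.2% of all tested enhancers. The further rises were chr13:113623606-113623963, chr11:51724136-51724563, chr11:86520177-86520525, chr4:15990402-15990920, chr16:44599087-44599524, chr17:43868642-43869066, chr2:131993602-131993901, chr14:103274507-103274952, chr4:125996917-125997224 and chr2:34852947-34853396. These 10 held 16 to 32 tags over the CpG 3 h libraries and 2 to 10 over the unstimulated ones, with log2 changes of 1.98 to 3.33. Of rises 16 to 33, 9 stayed called without CpG 3 h replicate 1, 3 without CpG 3 h replicate 2, 5 without unstimulated replicate 1 and 3 without unstimulated replicate 2, and the calls lost had an edgeR adjusted p of 0.0544 to 0.538.

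**Figure D2:**
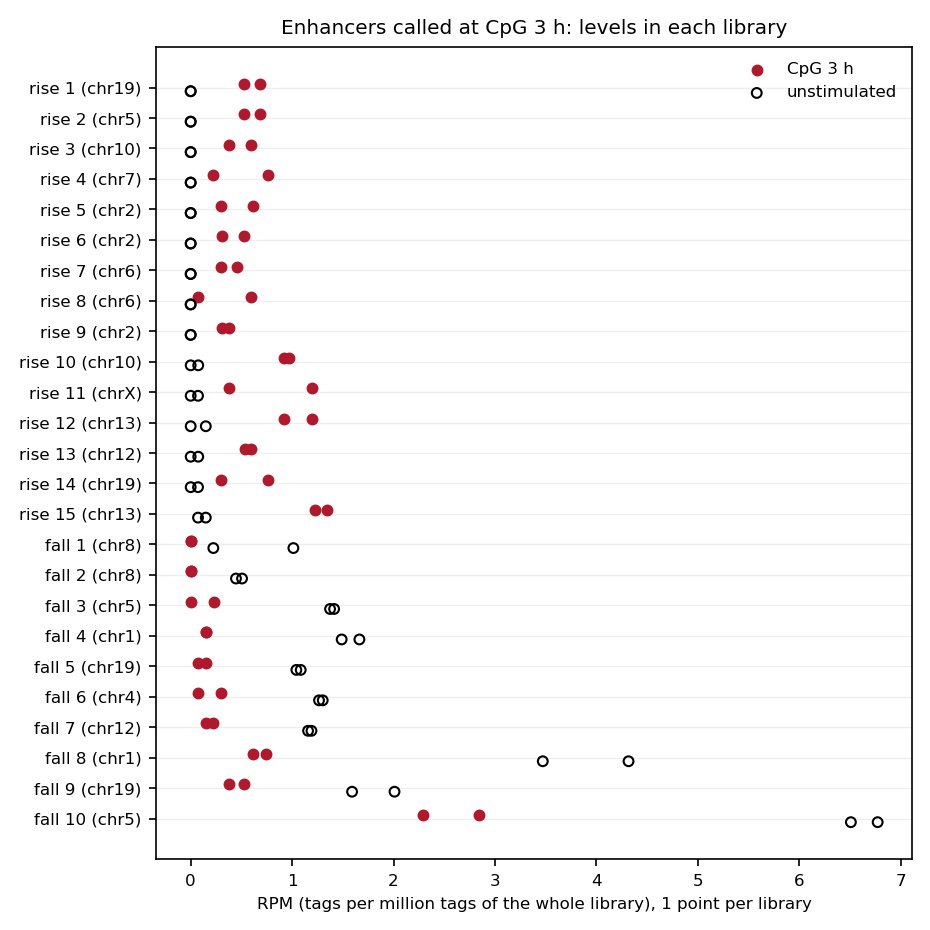
Level in RPM (horizontal axis) of the 15 largest rises and the 10 falls, 1 row each with its chromosome; filled red points are the 2 CpG 3 h libraries and open points the 2 unstimulated libraries, and points that coincide lie on top of each other. Rises 1 to 9 have both unstimulated libraries at 0, and fall 10 has the highest levels, 2.56 ± 0.387 RPM at CpG 3 h against 6.64 ± 0.187 RPM in unstimulated cells.

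The 10 falls were at enhancers with a median of 36.5 tags over the unstimulated libraries (13 to 181). A fall could be called only where these libraries held enough tags, so that nothing is read from this median. The best supported was fall 8, chr1:128518463-128519014, with 10 and 8 tags at CpG 3 h and 48 and 58 tags in unstimulated cells. Its level was 0.679 ± 0.0962 RPM at CpG 3 h against 3.89 ± 0.598 RPM in unstimulated cells, a log2 change of -2.22 ± 0.39 (edgeR adjusted p = 2.66e-05). Fall 4, chr1:154935259-154935510, on the same chromosome, had 2 and 2 tags at CpG 3 h against 23 and 20 in unstimulated cells (edgeR adjusted p = 6.76e-04). These 2 enhancers were the falls that stayed called without each of the 4 libraries in turn. Fall 10, chr5:34684166-34684741, held the most tags of any called enhancer, with 38 and 30 at CpG 3 h against 90 and 91 in unstimulated cells, and had the smallest change, -1.08 ± 0.28 on the log2 scale (edgeR adjusted p = 0.0135). Its call was lost without any 1 of the 4 libraries (edgeR adjusted p = 0.0628 without CpG 3 h replicate 1, 0.297 without CpG 3 h replicate 2, 0.0884 without unstimulated replicate 1 and 0.163 without unstimulated replicate 2), while the direction was kept.

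A pair of falls had no tag at CpG 3 h, and both lie on chromosome 8. Fall 1, chr8:127554885-127555396, had none in either CpG 3 h library against 14 and 3 in the unstimulated ones, at least 4.51-fold lower (edgeR adjusted p = 0.00937). The unstimulated libraries differed widely at this enhancer, and the call was lost without unstimulated replicate 1 (edgeR adjusted p = 0.378), CpG 3 h replicate 1 (0.172) or CpG 3 h replicate 2 (0.171). Fall 2, chr8:127321877-127322519, had none at CpG 3 h against 7 and 6 in unstimulated cells, at least 3.45-fold lower (edgeR adjusted p = 0.0422). The remaining falls kept a few tags. Fall 3, chr5:142804435-142804856, had 0 and 3 tags at CpG 3 h against 19 and 19 in unstimulated cells (10.1-fold lower, 95% counting interval 3.20 to 51.0), and fall 5, chr19:5865037-5865416, had 1 and 2 against 15 and 14 (7.68-fold lower, 2.38 to 39.4). Fall 6, chr4:63319780-63320132, had 4 and 1 tags at CpG 3 h against 18 and 17, and fall 7, chr12:85515204-85515968, had 3 and 2 against 16 and 16. Fall 9, chr19:47497146-47497682, had 7 and 5 tags at CpG 3 h against 22 and 27 in unstimulated cells. In all 10 falls both CpG 3 h libraries lay below both unstimulated libraries. The groups did not overlap, in either direction, in 42.2% of all tested enhancers, and the falls were chosen by these same libraries. Of the 10 calls, 3 were kept without CpG 3 h replicate 1, 3 without CpG 3 h replicate 2, 3 without unstimulated replicate 1 and 4 without unstimulated replicate 2 (calls lost at edgeR adjusted p = 0.0628 to 0.378).

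Not all of the enhancers with most tags were called, which does not show that the others had no response. Of the 5 tested enhancers with the most tags over the 4 libraries, fall 10 passed the test and the other 4 did not. The one with most, chrX:169088704-169089473, had 129 and 119 tags at CpG 3 h and 137 and 95 in unstimulated cells, and the groups overlapped (log2 change 0.43 ± 0.23; edgeR adjusted p = 0.376). Enhancer chr12:91554802-91555508 had 63 and 63 tags at CpG 3 h against 53 and 46 in unstimulated cells, which do not overlap but differed by a log2 change of 0.68 at an edgeR adjusted p of 0.203. Enhancers chr2:180085365-180085953, with 52 and 45 tags against 65 and 62, and chr5:114083055-114083713, with 44 and 51 against 69 and 57, had fitted changes of -0.06 and -0.08 (edgeR adjusted p = 1.00 for both). For both, the sign of this small change turned positive in a fit without 1 library.

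At the threshold, the last enhancer called was rise 32 at an edgeR adjusted p of 0.0471 and the first not called was chr13:5839351-5839665 at 0.0512, with 21 tags over the CpG 3 h libraries against 6 over the unstimulated ones. In all 43 called enhancers the RPM of the groups did not overlap, as in 42.2% of all tested enhancers. Called enhancers were not all of one kind in length or position. The median length was 393 bases for rises, 523.5 for falls, 372 for tested enhancers not called and 258 for untested ones. The median distance to the nearest other enhancer was 1047 bases for rises, 789.5 for falls, 1628 for tested enhancers not called and 4342 for untested ones. These medians follow the number of tags as well, with a median of 21 tags at CpG 3 h against 2 in unstimulated cells for rises, 4.5 against 36.5 for falls and 5 against 6 for tested enhancers not called, and the part of the tag number in the lengths and distances was not tested.

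To describe the response by genomic locus, enhancers that lay near each other, within the stitching distance given with the processing steps, were joined and their tags summed. This gave 5882 loci, of which 2391 could be tested. Between CpG 3 h and unstimulated cells, 137 of them differed at an edgeR adjusted p under 0.05, which is 5.73% of those tested. Of these, 90 were higher (3.76%) and 47 lower (1.97%), so that 65.7% were rises. With whole-library totals, 74 loci were called, 27 higher and 47 lower, so that 36.5% were rises, and the median log2 change of all tested loci was -0.13. The RPM of the groups did not overlap in 135 of the 137 called loci, as in 49.1% of all tested loci. Without CpG 3 h replicate 1 or 2 the count of called loci was 38 or 48, without unstimulated replicate 1 or 2 it was 36 or 40, and DESeq2 called 30.

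Most called loci held no enhancer that was called on its own. A called enhancer lay in 40 of the 137, and 97 had none. Outside the called loci lay 3 called enhancers, rise 29 (chr2:34852947-34853396), rise 32 (chr11:75351143-75351651) and fall 1 (chr8:127554885-127555396). The called loci had a median span of 7.83 kb and a median of 3 enhancers, against 2 in all tested loci, and 13 held a single enhancer. Members of a called locus mostly moved the same way, but the loci were called on the sums of these same members. Members of loci not called were not counted beside them, so that no joint movement is read from the counts. Members were counted by TMM-scaled tags summed over the libraries of a group, and not by RPM. In the 82 rising loci with 2 or more enhancers, 290 of 356 members were higher at CpG 3 h, 26 were lower and 40 had no tag in the 4 libraries. In the 42 falling loci with 2 or more enhancers, 193 of 227 members were lower, 25 were higher and 9 had no tag.

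Loci that rose without an unstimulated tag numbered 17. The one with the largest fitted change was chr5:20073402-20077174, whose 3 enhancers were all too weak to be tested alone. They held 3 and 2 tags, 5 and 2 tags, and 4 and 0 tags in the CpG 3 h libraries, and none held a tag in unstimulated cells, so that the locus had 12 and 4 tags against none (at least 6.52-fold; log2 change 6.17 ± 1.43; edgeR adjusted p = 0.00201). The call was lost without CpG 3 h replicate 1 (edgeR adjusted p = 0.171) or unstimulated replicate 1 (0.0614). Locus chr10:18886380-18888845, around rise 3, had 8 and 8 tags at CpG 3 h and none in unstimulated cells, and stayed called without each library in turn. Loci chr6:49472129-49479211, chr10:67472518-67483807 and chr14:45277981-45287861 had 5 and 7, 5 and 6, and 5 and 5 tags at CpG 3 h, each against none. The other 5 of the 10 rising loci with the largest fitted changes were those of rises 1, 2, 6, 8 and 9. Of these 10 calls, 4 were kept without CpG 3 h replicate 1, 6 without CpG 3 h replicate 2, 3 without unstimulated replicate 1 and 4 without unstimulated replicate 2 (calls lost at edgeR adjusted p = 0.0588 to 0.556). Locus chr19:21028487-21031313, around rise 14, had 9 and 14 tags at CpG 3 h against 1 and 0 in unstimulated cells, with all 3 members higher (28.1-fold, 95% counting interval 4.56 to 1158; edgeR adjusted p = 2.44e-04).

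Loci that fell without a tag at CpG 3 h numbered 5. Locus chr10:66933710-66936264 had no tag at CpG 3 h against 6 and 7 in unstimulated cells, and chr14:65581134-65583283 none against 7 and 6 (each at least 3.55-fold lower). Locus chr17:12378254-12390413 had none against 5 and 7, chr17:26656143-26656733 none against 2 and 8, and chr16:16343409-16343597 none against 7 and 3. None of these 5 holds an enhancer called alone. The other 5 of the 10 falling loci with the largest fitted changes kept 1 or 2 tags: chr6:124875320-124878318 with 1 and 0 at CpG 3 h against 13 and 6, chr13:81032796-81033067 and chr3:51696195-51697059 with 0 and 1 against 8 and 7 each, chr6:87476901-87489552 with 2 and 0 against 10 and 12, and chr6:122575470-122576565 with 1 and 1 against 13 and 8. These 10 falls rest on few tags. Of their calls, 1 was kept without CpG 3 h replicate 1, 0 without CpG 3 h replicate 2, 1 without unstimulated replicate 1 and 0 without unstimulated replicate 2 (calls lost at edgeR adjusted p = 0.0506 to 0.407).

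The called loci with the most enhancers were one fall and one rise. Locus chr17:84408167-84456562 holds 17 enhancers over 48.4 kb and had 26 and 26 tags at CpG 3 h against 83 and 60 in unstimulated cells, with 14 members lower and 2 higher (log2 change -1.16 ± 0.27; edgeR adjusted p = 0.00201). Locus chr13:5817865-5895417, the largest of the called loci by number of enhancers, holds 20 and had 42 and 53 tags at CpG 3 h against 23 and 31 (log2 change 1.10 ± 0.27), with 13 members higher and 3 lower. Neither contains an enhancer called alone. Both calls were lost without unstimulated replicate 1 (edgeR adjusted p = 0.104 for the locus on chromosome 17 and 0.154 for that on chromosome 13) and without CpG 3 h replicate 2 (0.0509 and 0.113), and the locus on chromosome 13 was not called with whole-library totals.

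Further loci in which no member went the other way stood at both ends. Locus chr17:18082547-18122486 had 11 of 13 members higher and 2 without a tag, with 19 and 22 tags at CpG 3 h against 8 and 1 in unstimulated cells (log2 change 2.44 ± 0.49; edgeR adjusted p = 2.44e-04). Locus chr7:19042481-19061387 had all 8 members lower, with 7 and 11 tags at CpG 3 h against 41 and 37 in unstimulated cells (log2 change -1.81 ± 0.40; edgeR adjusted p = 0.00102). Locus chr8:84919232-84930939 had all 7 members lower and held the most tags of any called locus, 68 and 87 at CpG 3 h against 177 and 155 in unstimulated cells, or 5.86 ± 1.11 RPM against 12.2 ± 0.894 RPM (log2 change -0.81 ± 0.19; edgeR adjusted p = 0.0026). In these 3 loci the groups did not overlap, as in 49.1% of all tested loci. The rise on chromosome 17 was lost without unstimulated replicate 2 (edgeR adjusted p = 0.0724), the fall on chromosome 7 without CpG 3 h replicate 1 (0.0831), and the fall on chromosome 8 without CpG 3 h replicate 1 (0.134) or unstimulated replicate 1 (0.0626).

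The loci that stayed called without each of the 4 libraries in turn were 9 of the 137. They were the loci of rises 1, 2, 3, 14, 15, 17, 23 and 31 and of fall 8, and DESeq2 and limma called all of them except the locus of rise 14, which DESeq2 did not call. The locus of rise 23, chr16:44587356-44599524, had 20 and 12 tags at CpG 3 h against 2 and 2 in unstimulated cells (log2 change 3.20 ± 0.64). The locus of rise 31, chr7:75306179-75319526, stood at 3.29 ± 0.639 RPM at CpG 3 h against 1.35 ± 0.439 RPM in unstimulated cells (log2 change 1.52 ± 0.31), with 4 of 5 members higher.

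Called loci were spread over the genome. Every chromosome from 1 to 19 and X held at least 1, and the share of tested loci called ran from 0.971% on chromosome 15 to 9.26% on chromosome 17. Called loci lay within 250 kb of the next called locus in 11 cases, with the same direction in 9. The same counts over all tested loci were not made. With 65.7% of the called loci being rises, many pairs share a direction in any case, so that nothing is read from these counts. Rises lay next to rises at chr13:113622991-113623963 and chr13:113727917-113752460, 104 kb apart, which hold rises 18 and 12, and at chr11:117830590-117855881 and chr11:117870378-117887040, 14.5 kb apart. Falls lay next to falls at chr1:86361844-86369497 and chr1:86393657-86400623, 24.2 kb apart. Each of these 6 loci lost its call without at least 2 of the 4 libraries (edgeR adjusted p up to 0.481). The other 2 of the 11 pairs went in opposite directions. Locus chr5:142801576-142808462, around fall 3, had 3 and 14 tags at CpG 3 h against 30 and 32 in unstimulated cells, while chr5:143036080-143044781, 228 kb away, had 7 and 9 against 0 and 2. Locus chr6:124706405-124714236 had 4 and 3 tags at CpG 3 h against none, and chr6:124875320-124878318, 161 kb away, had 1 and 0 against 13 and 6. All 4 of these loci lost their call without at least 2 of the 4 libraries, with the edgeR adjusted p reaching 0.367 for the fall and 0.256 for the rise on chromosome 5 and 0.222 and 0.319 for the rise and the fall on chromosome 6.

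**Figure D3:**
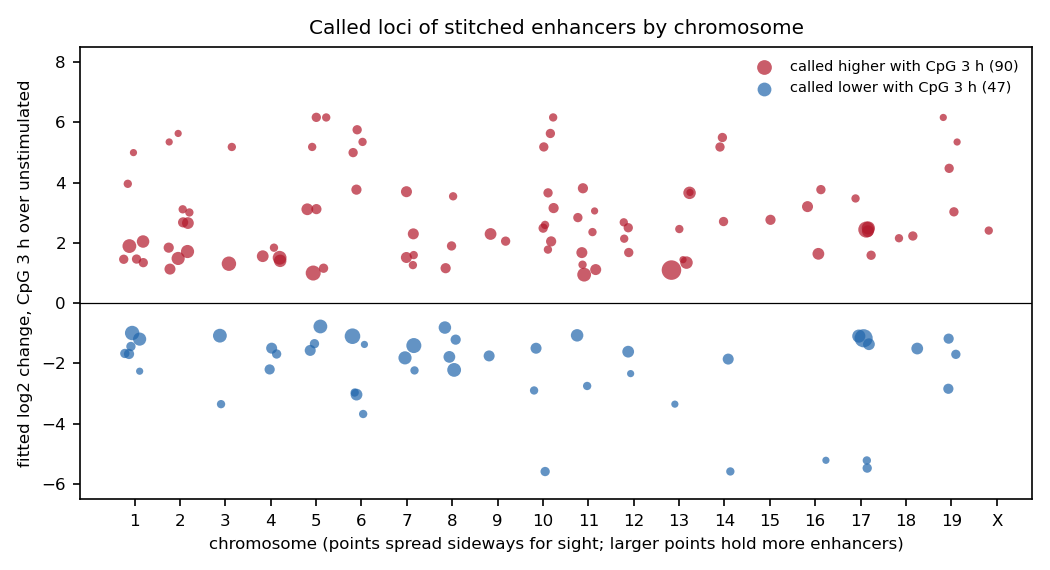
Fitted log2 change at CpG 3 h over unstimulated (vertical axis) of the 137 called loci by chromosome (horizontal axis), 1 point per locus, red for the 90 rises and blue for the 47 falls, with larger points for loci with more enhancers. The loci with 20, 17 and 13 enhancers lie at 1.10, -1.16 and 2.44, and each chromosome but 2, 15 and X holds both rises and falls.

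The later CpG times were set against CpG 3 h to follow the early changes, and few enhancers passed that test. Against CpG 3 h, 13 of the 2792 tested enhancers were called at 9 h (0.466%; 0.251% upward and 0.215% downward). At 15 h 18 were called (0.645%; 0.287% upward and 0.358% downward). Among the 33 rises, edgeR called 0 in either direction at 9 h, while at 15 h it called 0 upward and 3 downward. At an unadjusted p under 0.05, 2 rises were higher and 5 lower at 9 h, beside 5.55% and 5.16% of all tested enhancers. At 15 h 2 were higher and 7 lower, beside 6.2% and 5.66%, and DESeq2 called 0 at both times. Of the 10 falls, 1 was higher at 9 h and 1 at 15 h. These comparisons share the CpG 3 h libraries with the ones that chose the enhancers. The highest mean RPM among the CpG times was at 3 h for 10 of the 33 rises, at 9 h for 16 and at 15 h for 7. The lowest mean RPM was at 3 h for 8 of the 10 falls, at 9 h for 1 and at 15 h for 1. All enhancer tags together were also lowest at 3 h (1307 RPM, against 1598 at 9 h and 1513 at 15 h). With TMM factors, the fitted change from 3 h to 9 h was positive at 15 of the 33 rises and negative at 18. Times of the extreme were not counted over all tested enhancers, so that nothing is read from them.

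The calls against unstimulated cells at 9 h and 15 h use the same unstimulated libraries as the choice of the enhancers, so that nothing is read from their number. At 9 h, 195 tested enhancers were called against unstimulated cells (6.98%; 4.48% higher, 2.51% lower), with 25 of the 33 rises higher and 4 of the 10 falls lower. At 15 h, 212 were called (7.59%; 4.55% higher, 3.04% lower), with 20 of the 33 rises higher and 4 of the 10 falls lower. Of the 2391 tested loci, 31 were called at 9 h against CpG 3 h, which is 1.3% (0.586% upward and 0.711% downward). At 15 h the number was 67, or 2.8% (1.25% upward and 1.55% downward). Of the 90 loci that rose at 3 h, 0 passed the edgeR test upward and 1 downward at 9 h, while at 15 h 1 did so upward and 6 downward. Of the 47 loci that fell at 3 h, 3 were called higher at 9 h and none lower, while 3 were called higher and 2 lower at 15 h.

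The rises called lower at 15 h than at 3 h were rises 15, 17 and 30. Each of these calls was lost without any 1 of the 4 libraries (edgeR adjusted p = 0.0731 to 0.393) and was not made by DESeq2 (adjusted p = 0.351 to 0.602). Rise 15 (chr13:120561689-120561992) had 1 and 2 tags at 0 h, 18 and 16 at 3 h, 8 and 7 at 9 h and 5 and 2 at 15 h. Rise 17 (chr17:56268411-56268705) had 4 and 3 tags at 0 h, 31 and 33 at 3 h, 33 and 33 at 9 h and 10 and 16 at 15 h. Rise 30 (chr11:117878837-117879183) had 9 and 6 tags at 0 h, 19 and 18 at 3 h, 13 and 9 at 9 h and 5 and 6 at 15 h. The tags of rise 30 at 15 h were no more than in its unstimulated libraries, and whether the courses differ among the 3 was not tested. None of the 3 passed the edgeR test between 3 h and 9 h (log2 change -1.43, -0.22 and -1.01 for rises 15, 17 and 30; adjusted p = 0.204, 0.871 and 0.344). With whole-library totals 0 of the 33 rises were called lower at 15 h than at 3 h.

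Other rises kept their tags or gained some. Rise 1 (chr19:10822778-10823211) had none at 0 h, 7 and 9 tags at 3 h, 15 and 20 at 9 h and 16 and 23 at 15 h. Rise 21 (chr11:96713520-96713807) had 1 and 3 tags at 0 h, 12 and 17 at 3 h, 21 and 22 at 9 h and 31 and 36 at 15 h. In neither did the step between 3 h and 15 h pass the test (log2 change 1.11 ± 0.47 and 1.04 ± 0.38; edgeR adjusted p = 0.285 and 0.174). Among the falls, fall 3 (chr5:142804435-142804856) had 19 and 19 tags at 0 h, 0 and 3 at 3 h, 14 and 12 at 9 h and 18 and 16 at 15 h. Its level at 15 h was higher than at 3 h by a log2 change of 3.25 ± 0.68 (edgeR adjusted p = 0.00156), a call lost without CpG 3 h replicate 1 (0.209). Fall 8 (chr1:128518463-128519014) stayed low, with 48 and 58 tags at 0 h, 10 and 8 at 3 h, 2 and 9 at 9 h and 16 and 4 at 15 h.

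**Figure D4:**
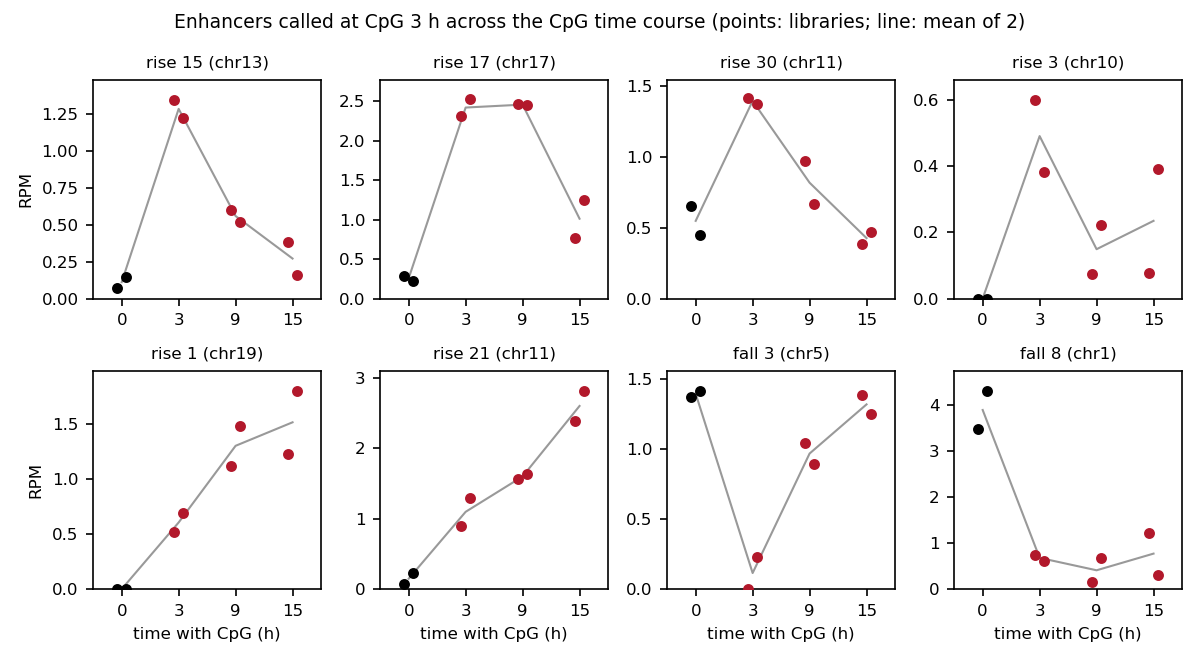
Level in RPM (vertical axis) of 8 called enhancers at 0, 3, 9 and 15 h of CpG (horizontal axis); black points are the unstimulated libraries, red points the CpG libraries and the grey line the mean of 2. Rise 15 is highest at 3 h, rises 1 and 21 are highest at 15 h, and fall 3 is lowest at 3 h and near its 0 h level at 15 h.

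The IFN 3 h and IFN+CpG 3 h groups were in culture for the same time as CpG 3 h. The comparison of IFN+CpG 3 h with IFN 3 h adds CpG on top of IFN and uses none of the 4 libraries that chose the enhancers. It called 36 of 2792 tested enhancers (1.29%; 1.04% higher, 0.251% lower) and, among the 33 rises, 2 higher and 0 lower. These were rise 3 (chr10:18888253-18888845), with 10 and 15 tags with both against 0 and 1 with IFN, and rise 27 (chr14:103274507-103274952), with 37 and 24 against 12 and 3 (edgeR adjusted p = 0.0295 and 0.0475). Both calls were lost without any 1 of the 4 libraries (edgeR adjusted p up to 0.446 and 0.494). Of the 33 rises, 31 had a positive fitted change with a median of 1.61, beside a median of 0.11 over all tested enhancers, and all 10 falls had a negative one with a median of -1.23 (9 of 10 negative without IFN 3 h replicate 2). At an unadjusted edgeR p under 0.05, 19 of the 33 rises were higher and 0 lower, beside 9.67% and 5.55% of all tested enhancers. None of the 10 falls passed the edgeR test at the adjusted threshold, and 3 were lower and 0 higher at an unadjusted p under 0.05. DESeq2 called 0 of the rises and 0 of the falls. With whole-library totals, 13 of the 33 rises were called higher, and 106 of all tested enhancers.

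CpG 3 h was also set directly against IFN 3 h, where 287 tested enhancers were called (10.3%; 4.08% higher and 6.2% lower with CpG). Of the 33 rises, 20 were higher with CpG than with IFN and 0 lower, and of the 10 falls 2 were lower. This comparison shares the CpG 3 h libraries with the choice of the enhancers, so that nothing is read from the share. The count of 20 was 11 without CpG 3 h replicate 1, 11 without CpG 3 h replicate 2, 6 without IFN 3 h replicate 1 and 8 without IFN 3 h replicate 2. Rise 17 had 31 and 33 tags with CpG against 2 and 2 with IFN, and rise 25 (chr5:91048099-91048421) had 12 and 20 against 1 and 0. Both calls were kept in these 4 fits (edgeR adjusted p at most 0.00131 and 0.012).

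Some rises of CpG alone had a lower level with IFN+CpG. This is a comparison of levels, and a direct test of the CpG responses, given below, called 0 of the 33 rises. Against CpG 3 h, IFN+CpG 3 h called 470 tested enhancers (16.8%; 11.4% higher, 5.44% lower), and among the 33 rises 1 was higher and 7 lower. The comparison again shares the CpG 3 h libraries that chose the enhancers, so that nothing is read from these counts. Rise 10 (chr10:17648333-17648543) had 1 and 0 tags with both stimuli against 13 and 12 with CpG, close to its level in unstimulated cells (log2 change -4.65 ± 1.00; edgeR adjusted p = 1.96e-04). Rise 21 (chr11:96713520-96713807) had 3 and 2 tags with both against 12 and 17 with CpG, and rise 17 (chr17:56268411-56268705) had 13 and 9 against 31 and 33 (log2 change -2.82 ± 0.62 and -1.88 ± 0.40; edgeR adjusted p = 3.03e-04 and 1.79e-04). These 3 stayed lower in each fit without 1 of the 4 libraries. The other 4 were rises 12, 13, 25 and 31, whose calls were each lost in at least 2 of those fits. With whole-library totals 4 of the 33 rises were lower and 3 higher.

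Rise 30 (chr11:117878837-117879183) was the rise that was higher with both stimuli, with 55 and 76 tags against 19 and 18 with CpG alone, 28 and 25 with IFN alone and 9 and 6 in unstimulated cells. The change was 1.45 ± 0.33 on the log2 scale (edgeR adjusted p = 4.42e-04) and was called in each of the 4 fits without 1 library, while its rise with CpG alone was called in none of its 4. Among the falls, fall 10 (chr5:34684166-34684741) was lower with both, at 9 and 12 tags against 38 and 30 with CpG alone (log2 change -2.04 ± 0.38; edgeR adjusted p = 1.37e-05). It had 20 and 16 tags with IFN alone and 90 and 91 in unstimulated cells. Set against IFN alone, the level with both was not called (log2 change -1.30 ± 0.43; edgeR adjusted p = 0.0844). Fall 1 (chr8:127554885-127555396) had 5 and 4 tags with both against none with CpG alone (edgeR adjusted p = 0.0258), a call lost without any 1 of the 4 libraries (up to 0.162). A direct test of whether the CpG response with IFN differed from that without IFN called 0 of the 43 enhancers by edgeR, and 1 of all 2792 (0.0358%). At an unadjusted p under 0.05 the response with IFN was the lower one at 8 of the 33 rises, beside 3.19% of all tested enhancers, and the higher one at 4 of the 10 falls, beside 3.58%. This test contains the 4 libraries that chose the enhancers, which by itself moves it toward these directions, so that nothing is read from these counts.

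The calls of the 43 enhancers for IFN 3 h and IFN+CpG 3 h against unstimulated cells use the same unstimulated libraries as their choice, so that they are given side by side and no agreement is read from them. IFN at 3 h called 293 tested enhancers (10.5%; 7.59% higher, 2.9% lower), with 5 of the 33 rises higher and 2 of the 10 falls lower. IFN+CpG at 3 h called 764 (27.4%; 18.4% higher, 8.95% lower), with 24 of the 33 rises higher and 8 of the 10 falls lower.

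The called loci gave more calls in the comparison that shares no library with their choice. IFN+CpG 3 h against IFN 3 h called 147 of 2391 tested loci (6.15%; 4.18% higher, 1.97% lower). Of the 90 loci that rose with CpG, 24 were higher with IFN+CpG than with IFN and 0 lower, and 83 had a positive fitted change, with a median log2 change of 1.39 beside 0.082 over all tested loci. Of the 47 loci that fell with CpG, 6 were lower and 0 higher, and 40 had a negative fitted change. For loci this comparison was not repeated with other scalings or methods or without 1 library. For enhancers its 36 calls became 1 with DESeq2 and 110 with whole-library totals. Set against IFN 3 h itself, CpG 3 h called 444 tested loci (18.6%; 7.65% higher, 10.9% lower), with 49 of the 90 rising loci higher and 1 lower, and 11 of the 47 falling loci lower and 1 higher. IFN+CpG 3 h against CpG 3 h called 593 tested loci (24.8%; 16.1% higher, 8.7% lower), with 12 of the 90 rising loci higher and 20 lower, and 7 of the 47 falling loci higher and 9 lower. Both of these comparisons share the CpG 3 h libraries.

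**Figure D5:**
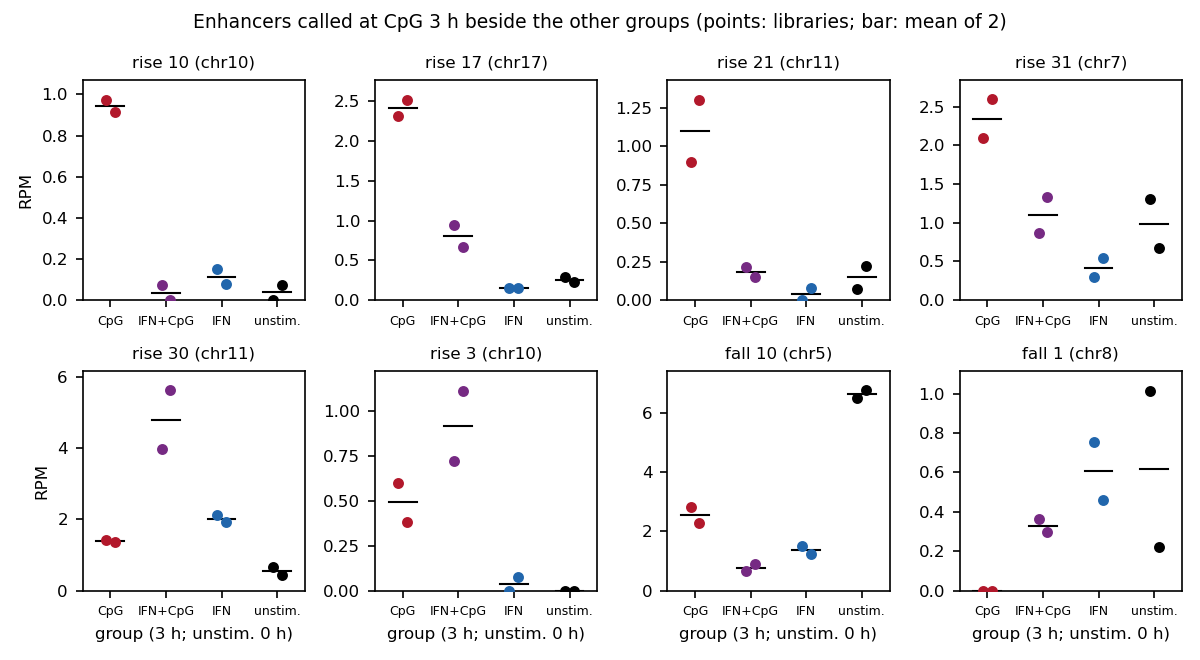
Level in RPM (vertical axis) of 8 called enhancers in CpG 3 h, IFN+CpG 3 h, IFN 3 h and unstimulated cells (horizontal axis), with 1 point per library and a bar at the mean of 2. Rises 10, 17, 21 and 31 are lower with both stimuli than with CpG alone, rise 30 is higher, and fall 10 is lowest with both.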

How the data were processed

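Per the labels' protocols, total RNA was extracted with TRIzol and nAnT-iCAGE libraries were made from it. HISAT2 2.1.0, BWA 0.7.10, Trimmomatic 0.38, FastQC 0.11.5 and the build mm39 are listed in the submitters' processing notes. Which program called enhancers is not given in the sources used here. For 11222 enhancers in 20 libraries the authors deposited raw tag counts. The second deposited table, named TPM, holds RPM relative to the whole library (12776280 to 13855472 tags), since count over value gave 1 total per library. The files do not say whether a start is counted from 0 or from 1, and coordinates were copied unchanged.

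Counts were tested with edgeR 4.0.16 in R 4.3.3 (robust quasi-likelihood, two-sided, TMM, 1 coefficient per group of 20 libraries, 10 residual degrees of freedom, filterByExpr with minimum count 5 and total 15, Benjamini-Hochberg). Loci sum enhancers within 12500 bases. The standard error is the log2 change divided by the square root of F. Folds are ratios of TMM-scaled tags; floors (3 tags over a group) and exact 95% intervals cover counting error only. The test was tested on simulated data.

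The 15 rises and 10 falls with the largest fitted change, the 5 enhancers with most tags and the 10 loci each way with the largest fitted change were given in full; other enhancers and loci were named after their values were seen. The enhancers, loci and lists were chosen with earlier results of these data known. The comparison of IFN+CpG with CpG, the interaction, the neighbour pairs and the fits without 1 library for the later comparisons were added after the data were seen. Alternatives were RLE factors, whole-library totals, DESeq2 1.42.0, limma 3.58.1 on log2 of RPM plus 0.5 (0.1 or 2), other filters, a replicate block, fits of the compared groups alone, other stitching distances and leaving out each library. Gene lists, marker genes, motifs and a filter on gene starts were not run: the annotation and genome at hand are of GRCm38 and coordinates were not converted. Nothing says whether replicates share animals, so p-values measure the spread between these libraries.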

Additional observations from a re-analysis of the deposited data

Results flagged for a closer look

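In 4 enhancers called at CpG 3 h the level at a later CpG time differed from that at 3 h in a direct test between the times (edgeR adjusted p under 0.05). Enhancer chr5:142804435-142804856, a fall at 3 h, was higher again by 2.76 on the log2 scale at 9 h (edgeR adjusted p = 0.0327) and by 3.25 at 15 h (0.00156). The call at 15 h was kept in 3 of 4 fits without 1 library, and that at 9 h in 1 of 4. Rises that were lower at 15 h than at 3 h numbered 3, with log2 changes of -2.40 at chr13:120561689-120561992 (edgeR adjusted p = 0.0203), -1.45 at chr17:56268411-56268705 (0.0306) and -1.89 at chr11:117878837-117879183 (0.0275). Each of these 3 kept its sign and lost its call in all 4 fits without 1 library, with edgeR adjusted p = 0.0731 to 0.393. DESeq2 called none of the 5 differences. The comparisons share the CpG 3 h libraries that chose the enhancers.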

How the results depend on the processing

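All 43 called enhancers kept their direction in every alternative that gave them a value. For CpG 3 h against unstimulated cells the 43 enhancer calls became 19 without the low-count filter, 20 with DESeq2, 68 with the stricter filter, 78 in a fit of the compared groups alone, 111 and 138 with limma on RPM (pseudocounts 0.5 and 2), and 11 to 22 without 1 library, where the lone library of a group is taken to vary as the other groups do; RLE factors (45), whole-library totals (30) and limma with 0.1 (64) stayed within 1.5 times. Rises were 37 of the 111, 36 of the 138 and 32 of the 64 limma calls, which share the scaling to whole libraries. The 137 loci became 74 with whole-library totals, 30 with DESeq2, 58 with no filter and 36 to 48 without 1 library; limma called 175 (54 higher), and stitching within 5000 or 50000 bases gave 116 or 141. CpG against IFN at 3 h (287) gave 78 with DESeq2, 132 with no filter and 97 to 123 without 1 library. IFN+CpG against IFN at 3 h (36) gave 110 with whole-library totals, 1 with DESeq2, 4 with no filter, 78 for the groups alone, 263 with limma and 1 to 4 without 1 library. CpG 9 h against 3 h (13) gave 1 with DESeq2, 1 with no filter, 27 with the stricter filter, 22 for the groups alone, 35 with limma and 1 to 4 without 1 library. CpG 15 h against 3 h (18) gave 11 with whole-library totals, 1 with DESeq2, 7 with no filter, 43 with the stricter filter, 49 for the groups alone, 67 with limma and 2 to 8 without 1 library. The cause was not tested, apart from the fewer libraries and the other number of enhancers tested by construction. The summed tags kept their direction (-298.4 to -155.6 RPM over all alternatives).

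The small, uncalled log2 changes of 2 enhancers with many tags reversed: that of chr5:114083055-114083713 ran from -0.17 to 0.045 without 1 library (0.045 without unstimulated replicate 1, 0.0087 without CpG 3 h replicate 1), and that of chr2:180085365-180085953 from -0.18 to 0.061 (0.061 without CpG 3 h replicate 2). In all, 4 of 43 enhancers and 9 of 137 loci were called without each library in turn, 14 and 54 in none of the 4 fits; 25 and 73 were called with whole-library totals. No pairing of libraries by replicate number was seen (correlation of deviations between CpG 3 h and unstimulated cells -0.0441). At so few tags per enhancer this check cannot exclude a pairing. With a replicate block 42 enhancers and 127 loci were called. Tested enhancers not called had a median of 5 tags over the CpG 3 h libraries and 6 over the unstimulated ones. Small differences were mostly missed, and many large ones too. Among simulated enhancers, where the fold was 4, the test found 46% of the rises but only 4% of the falls. Where it was 2, 2% of the rises were found, and where it was 8, 86%. Simulated loci changed by a fold of 4 were found in 56% of cases when they rose and 20% when they fell. A missing call therefore does not show a lack of response.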
